A study of Mus musculus with 6 samples.

Results

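The immediate early genes examined here are 10 genes chosen by name: Fos, Fosb, Jun, Junb, Egr1, Egr2, Ier2, Ier3, Nr4a1 and Btg2. All 10 were found by symbol among the 43074 genes listed in each library, and 9 of them, all but Fosb, reached the level required for testing. They were measured in whole soleus, a calf muscle used in standing that holds both slow and fast fibres, in 3 libraries from wild type (WT) mice and 3 from mice with a muscle knockout of StarD7 (StarD7 mKO), a protein that carries phosphatidylcholine to mitochondria. The driver of the knockout, the strain, the age and the sex of the mice, and how and when the muscles were taken, are not given in the sources used here. No treatment is named for either group, and the labels do not say which animal gave which library, so p-values cover the differences among these libraries alone. In whole muscle RNA, fewer cells of a type and less RNA per cell cannot be told apart.

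Immediate early genes are switched on within minutes of a signal, without new protein synthesis, by transcription factors that are already present in the cell. Phosphorylation of serum response factor partners and of CREB carries growth factor, calcium and stress signals to their promoters, and the short-lived mRNAs disappear soon after. In skeletal muscle they respond to contraction, stretch and injury, and their transcripts can also be raised by dissection before the RNA is stabilised. Most of the members encode transcription factors: Fos, Fosb, Jun and Junb are subunits of the dimeric factor AP-1, Egr1 and Egr2 are zinc finger proteins, and Nr4a1 is an orphan nuclear receptor. Btg2 is an antiproliferative protein that brings mRNAs to the deadenylase complex, and Ier2 and Ier3 encode small proteins induced early by growth factors and stress.

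The promoters of 4 members are shown. Of these, 3 hold matches to the motifs searched, which, TATAAA aside, are sites of factors that carry such signals. Fos and Jun, partners in AP-1, are included because they lay on opposite sides of WT in the mKO libraries. Fosb, Junb and Nr4a1 also hold matches and are not shown. The sequences are RefSeq's, on build GRCm38.p6, which is older than the build of the deposited tables. Each ends at the base before the annotated start, 5′ to 3′ on the gene's strand. Capitals mark matches to the motifs searched. Of the Egr2 windows, the 1 shown was picked for its matches. The Btg2 stretch is longer, at 180 bases against 120, and so reaches its match. The Fos stretch is chr12:85473770-85473889 on the plus strand, Jun is chr4:95052223-95052342 on the minus strand, Egr2 is chr10:67537446-67537565 on the plus strand, before 1 of its annotated starts, and Btg2 is chr1:134079156-134079335 on the minus strand.
Fos: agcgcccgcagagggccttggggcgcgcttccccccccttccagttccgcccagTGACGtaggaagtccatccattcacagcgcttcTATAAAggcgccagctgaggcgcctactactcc
Jun: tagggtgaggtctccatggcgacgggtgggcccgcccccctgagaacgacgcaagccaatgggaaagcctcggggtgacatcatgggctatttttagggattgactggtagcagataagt
Egr2: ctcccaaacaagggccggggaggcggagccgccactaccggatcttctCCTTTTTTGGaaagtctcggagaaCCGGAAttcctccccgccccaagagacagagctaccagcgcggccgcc
Btg2: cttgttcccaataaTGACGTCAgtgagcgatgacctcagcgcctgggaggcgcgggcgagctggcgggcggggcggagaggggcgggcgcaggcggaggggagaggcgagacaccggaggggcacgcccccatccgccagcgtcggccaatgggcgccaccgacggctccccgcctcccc

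Fos held TGACG, the shortened cyclic AMP response element, at −66 to −62 from its start and TATAAA at −33 to −28. Egr2 held a CArG box, the site of serum response factor, at −72 to −63, with CCGGAA, the core of ETS factor sites, at −48 to −43. Btg2 held the full cyclic AMP response element TGACGTCA at −166 to −159. On either strand of the window from 250 bases before to 50 after the start, TGACG was found in 6 of the 8 members with an entry, against 20.8% of all 32851 promoter windows. The full element TGACGTCA, which holds TGACG on both strands, was found in 1 of 8 (1.79% of all windows), the CArG box in 1 (1.63%), CCGGAA in 2 (14.9%) and TATAAA in 2 (13.6%). None held the AP-1 site TGANTCA (7.81%) or the EGR site GCGTGGGCG (0.612%). Egr2 has several annotated starts and so more windows in which to match. Egr1 and Ier2 had no entry. The Jun window held none of these exact letters, which says nothing of other sites in it. For every member, sites outside the window or spelled otherwise were not searched, so the counts are of these windows alone.

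The knockout was visible in its target. Stard7 stood at 87.5, 95.4 and 95.0 TPM (reads per gene length, scaled to a fixed sum per library) in WT and at 21.8, 21.3 and 34.6 TPM in mKO (log2 fold change −1.83, SE 0.16, adjusted p = 0.00585, limma). Stard7 did not pass when WT replicate 2 was left out (adjusted p = 0.0703), nor when genes of every level were tested (adjusted p = 0.0858). Whole reads recovered from the TPM came to between 42928382 and 51287715 per library, while mitochondrially encoded genes took 43.5%, 42.1% and 45.1% of all TPM in WT and 48.9%, 46.8% and 48.2% in mKO, without overlap. Since the TPM of a library has a fixed sum, a larger mitochondrial share leaves less for every other gene, the members included. With mitochondrially encoded genes left out, the log2 fold changes were 0.67 for Fos, 0.88 for Egr1, 0.56 for Ier2 and −0.40 for Jun, and none passed the test.

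No immediate early gene passed the test between mKO and WT. Of the 9 tested, 0 had an adjusted p under 0.05 by limma-trend, and 0 of the 8 that could be tested by limma-voom on recovered reads. Over all 12301 tested genes limma-trend called 0.52%. At an unadjusted p under 0.05 there were 4 members, with Fos, Egr1 and Ier2 higher in mKO and Jun lower, against 10.7% of all tested genes. By direction, 462 of the 12301 were higher at that level and 849 lower, the background for the gene lists below as well. In the same 4 members the 3 WT and the 3 mKO libraries did not overlap, as in 16.0% of all tested genes. Genes without overlap that were higher in mKO made up 5.67% of all tested genes, and those that were lower made up 10.3%. With mitochondrially encoded genes left out this balance was reversed, at 24.9% higher and 2.62% lower, and Fos, Junb, Egr1 and Ier2 were the 4 members higher without overlap and Jun the 1 lower. The median log2 fold change of the 9 was 0.11, with 6 above and 3 below 0, and that of all tested genes was −0.01.

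**Figure D1:**
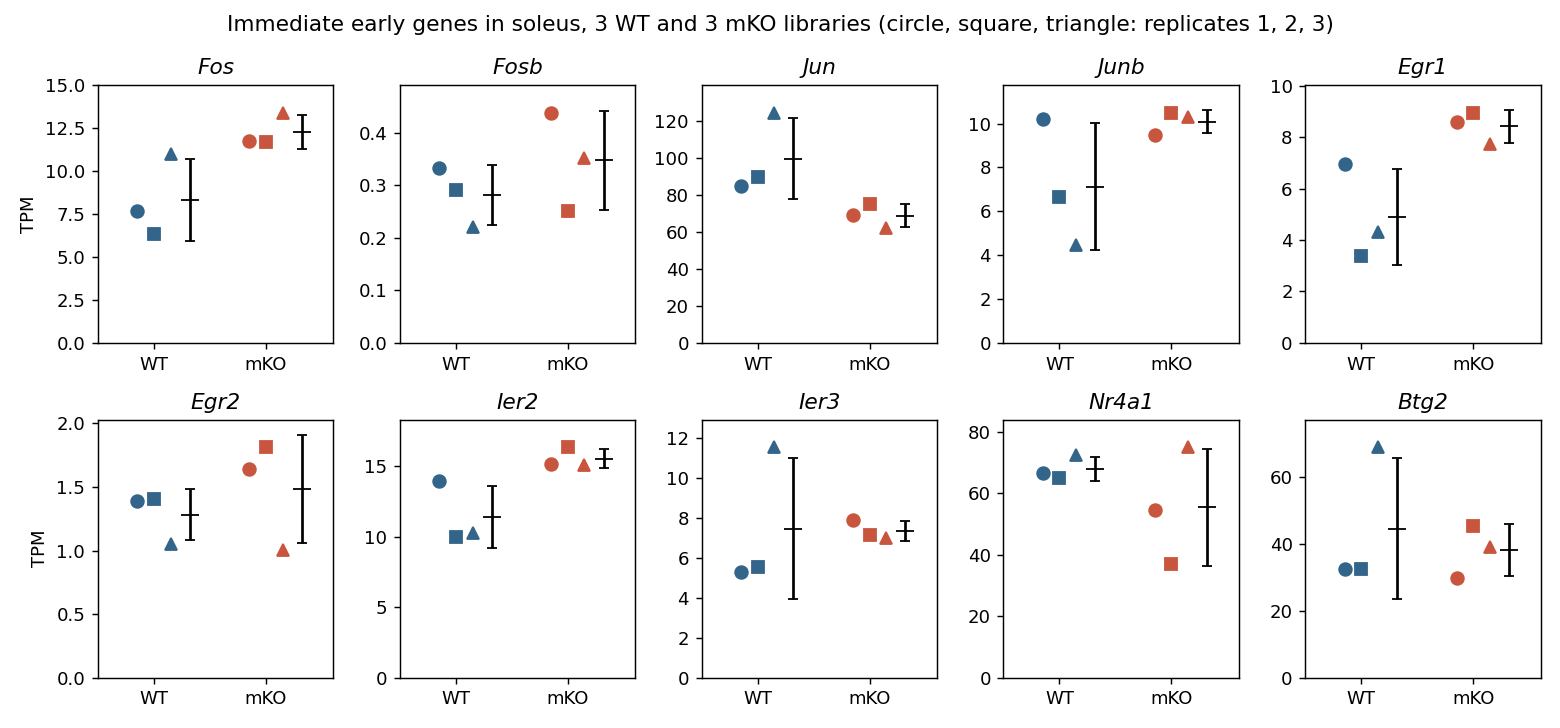
TPM of the 10 immediate early genes in the 3 WT (blue) and 3 mKO (red) libraries, with circle, square and triangle for replicates 1, 2 and 3, and the mean with its SD (n = 3) in black. Fos, Egr1 and Ier2 are higher in every mKO library than in every WT library, and Jun is lower, while the other members overlap.

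Fos had higher values in mKO without passing the test, and Fosb overlapped between the groups. Fos, whose protein must pair with a Jun protein to bind DNA, stood at 7.70, 6.34 and 11.0 TPM in WT and at 11.7, 11.7 and 13.4 TPM in mKO. The highest WT library, replicate 3, lay just under the lowest mKO library. The means were 8.34 ± 2.38 and 12.3 ± 0.980 TPM (SD, n = 3 each), a log2 difference of 0.54 (SE 0.16, 95% confidence interval 0.16 to 0.92, adjusted p = 0.28). The groups of Fos overlapped after scaling by median of ratios or by upper quartile. Between 312 and 631 reads lay behind each Fos value. Fosb, its close relative, was near the limit of detection, at 0.332, 0.291 and 0.220 TPM in WT and 0.438, 0.250 and 0.352 TPM in mKO. These Fosb values rest on 30 to 56 reads, the groups overlapped, and the gene was below the level set for testing.

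Jun stood lower in mKO in value and did not pass the test either. Jun, the most abundant member in both groups, stood at 84.9, 90.1 and 125 TPM in WT and at 69.5, 75.0 and 62.5 TPM in mKO. Every mKO library lay below every WT library, and WT replicate 3 stood apart at the top. The log2 fold change was −0.51 (SE 0.14, 95% confidence interval −0.84 to −0.19, adjusted p = 0.225). Junb, which often acts as a weaker activator than Jun and has been linked to the upkeep of muscle mass, stood at 10.2, 6.67 and 4.49 TPM in WT and at 9.48, 10.5 and 10.3 TPM in mKO. The mKO libraries lay close together at the level of WT replicate 1, and the remaining WT libraries lay below them. Its log2 fold change was 0.51 (SE 0.22, 95% confidence interval −0.01 to 1.03, adjusted p = 0.471), and it was 0.77 without WT replicate 1 and 0.26 without WT replicate 3.

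Ratios between members within a library, which do not depend on how that library was scaled, separated the groups for several members set against Jun. Fos was 0.0908, 0.0704 and 0.0880 of Jun in TPM in the WT libraries and 0.169, 0.156 and 0.215 in the mKO libraries. The ratio of Egr1 to Jun was 0.0821, 0.0375 and 0.0345 in WT and 0.123, 0.119 and 0.124 in mKO. That of Junb to Jun was 0.120, 0.0740 and 0.0359 in WT and 0.136, 0.140 and 0.165 in mKO. None of these 3 ratios overlapped between the groups. For Fos and Egr1 this was bound to follow, since both were higher, and Jun lower, in every mKO library than in every WT library. The pairs were picked after their values were seen, so they are given without a test. Jund, the third Jun gene, which is expressed steadily in most tissues, stood at 127, 117 and 115 TPM in WT and at 103, 109 and 96.9 TPM in mKO. It too was lower in every mKO library than in every WT library (−0.21 on the log2 scale, adjusted p = 0.263). With mitochondrially encoded genes left out, however, the groups of Jund overlapped, while those of Jun did not. As a share of the transcripts of Jun, Junb and Jund, Junb made up 4.61%, 3.11% and 1.84% in WT and 5.21%, 5.39% and 6.07% in mKO. The share of Jun was 38.2%, 42.1% and 51.1% in WT and 38.2%, 38.5% and 36.8% in mKO, and the share of Jund also overlapped.

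**Figure D2:**
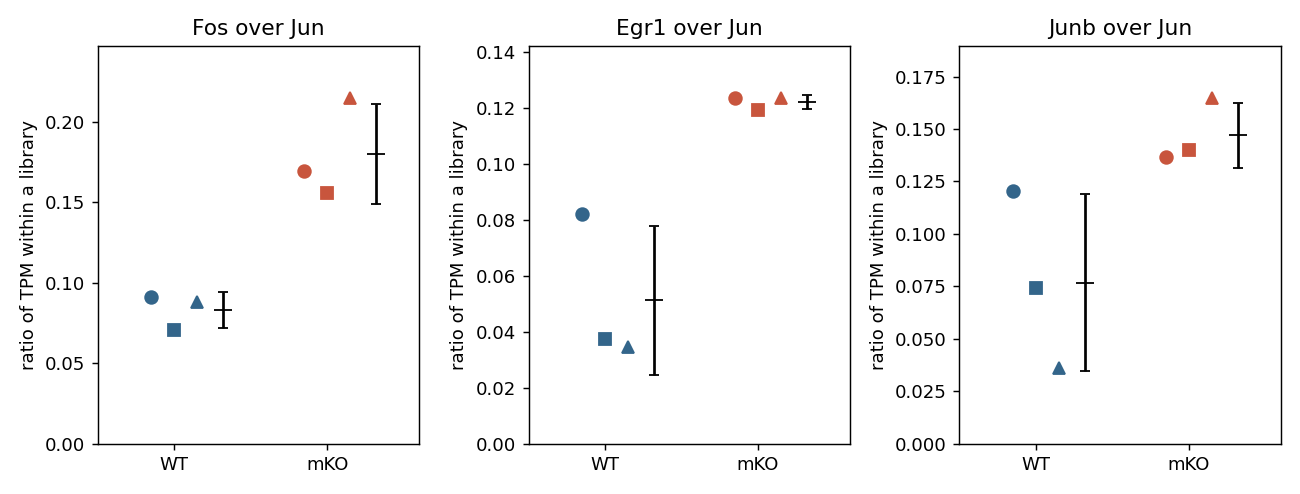
Ratio of the TPM of Fos, Egr1 and Junb to that of Jun within each library, for 3 WT (blue) and 3 mKO (red) libraries, with circle, square and triangle for replicates 1, 2 and 3 and the mean and SD (n = 3) in black. All 3 ratios are higher in each mKO library than in each WT library, for Fos at 0.156 to 0.215 against 0.0704 to 0.0908. For Fos and Egr1 this follows from their own values and those of Jun.

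Egr1 had the largest fold change of the members tested over all 6 libraries, though Fos exceeded it without WT replicate 3 (0.73 against 0.67) and Jun without WT replicate 2 (−0.57 against 0.53). Egr1, a zinc finger factor induced by growth factors and stretch, stood at 6.96, 3.38 and 4.31 TPM in WT and at 8.58, 8.96 and 7.73 TPM in mKO. All mKO libraries lay above WT replicate 1, the highest of its group. The means were 4.88 ± 1.86 and 8.42 ± 0.630 TPM (SD, n = 3 each), with a log2 fold change of 0.72 (SE 0.20, 95% confidence interval 0.27 to 1.18, adjusted p = 0.222). Egr2, known for its part in myelination by Schwann cells, was low, at 1.39, 1.41 and 1.05 TPM in WT and 1.64, 1.81 and 1.0 TPM in mKO. Its groups overlapped, since mKO replicate 3 was the lowest of all libraries (log2 fold change 0.11, 95% confidence interval −0.24 to 0.46, adjusted p = 0.857). The log2 fold change of Egr2 was 0.26 without mKO replicate 3 and 0.01 without mKO replicate 2. The 68 to 134 reads behind Egr2 leave a counting error of up to 17.1% of a value, if a read pair was counted as 2 reads.

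The remaining members went in no common direction. Ier2, a small nuclear protein of the early response, stood at 13.9, 9.97 and 10.3 TPM in WT and at 15.2, 16.3 and 15.1 TPM in mKO. Its mKO libraries lay together above all WT libraries (log2 fold change 0.43, SE 0.12, 95% confidence interval 0.16 to 0.70, adjusted p = 0.224). Ier2 and Egr1 ranked the 6 libraries in the same order, and Egr2 and Nr4a1 ranked them in exactly opposite orders. Both pairs were picked from all pairs of the tested members after their values were seen. Ier3, a stress-induced gene with a part in cell survival, stood at 5.28, 5.53 and 11.5 TPM in WT and at 7.90, 7.11 and 6.98 TPM in mKO. WT replicate 3 was above all mKO libraries and the other WT libraries were below them (log2 fold change 0.06, 95% confidence interval −0.50 to 0.61, adjusted p = 0.966). Without WT replicate 3 the log2 fold change of Ier3 was 0.38 (adjusted p = 0.218).

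Nr4a1, which in muscle acts on genes of glucose use, stood at 66.6, 64.9 and 72.4 TPM in WT and at 54.5, 36.9 and 75.0 TPM in mKO. The WT libraries were close together, and mKO replicates 2 and 3 were the lowest and the highest of all (log2 fold change −0.34, 95% confidence interval −0.84 to 0.15, adjusted p = 0.64). Without mKO replicate 2 the log2 fold change of Nr4a1 was −0.08, and without mKO replicate 3 it was −0.59. Btg2 stood at 32.4, 32.3 and 68.8 TPM in WT and at 29.8, 45.4 and 38.9 TPM in mKO. WT replicate 3 held more Btg2 than both other WT libraries together (log2 fold change −0.15, 95% confidence interval −0.81 to 0.51, adjusted p = 0.908). Without WT replicate 3 the log2 fold change of Btg2 was 0.21.

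**Figure D3:**
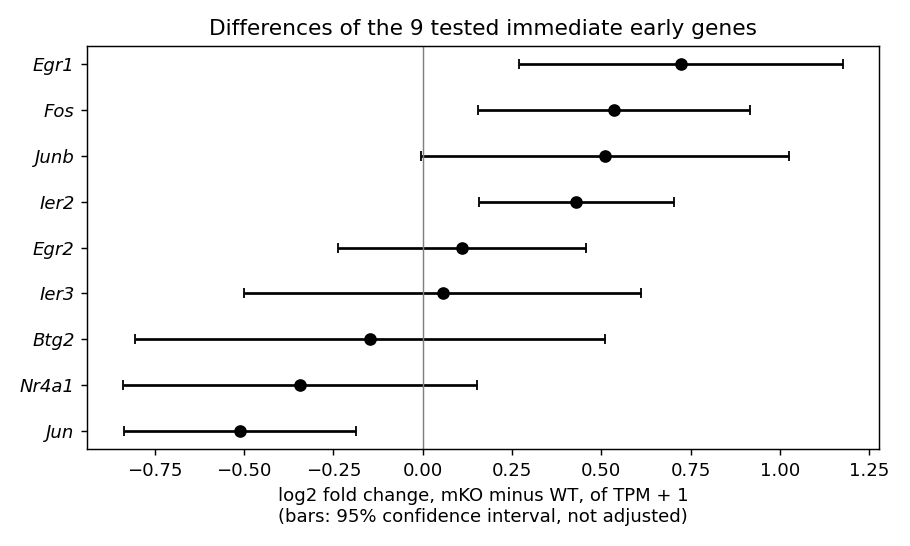
Log2 fold change (mKO minus WT) of TPM + 1 for the 9 tested immediate early genes, with unadjusted 95% confidence intervals. The intervals of Fos, Egr1, Ier2 and Jun leave out 0, with Jun alone below it, and none of the 9 passed the threshold after adjustment over all genes.

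Jun, Nr4a1 and Btg2 supplied most of the members' transcripts. As TPM, which is per gene length, the WT means ran from Jun at 99.9, Nr4a1 at 67.9 and Btg2 at 44.5 through Ier2 at 11.4, Fos at 8.34, Ier3 at 7.44, Junb at 7.12 and Egr1 at 4.88 to Egr2 at 1.28 and Fosb at 0.281. In WT the libraries of Jun did not overlap with those of Nr4a1, whereas those of Nr4a1 and Btg2 did, and so did each neighbouring pair from Ier2 to Egr1. In mKO the order was Jun at 69.0, Nr4a1 at 55.5, Btg2 at 38.0, Ier2 at 15.5, Fos at 12.3, Junb at 10.1, Egr1 at 8.42, Ier3 at 7.33, Egr2 at 1.48 and Fosb at 0.347. There Jun overlapped with Nr4a1, Nr4a1 with Btg2 and Egr1 with Ier3, and no other neighbours did. Jun, Nr4a1 and Btg2 together made up 80.0%, 84.8% and 86.1% of the summed TPM of the 10 members in WT and 73.7%, 73.5% and 76.3% in mKO. The sum itself overlapped between the groups, at 230, 221 and 309 TPM in WT and 209, 214 and 231 TPM in mKO.

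The members varied more among the WT than among the mKO libraries. The median coefficient of variation of the 9 tested members was 28.6% over the 3 WT libraries and 7.98% over the 3 mKO libraries. For all tested genes the medians were 7.54% and 8.06%. In WT 8 of the 9 lay above the median of all genes and 6 above its 90th percentile of 21.4%, and in mKO 4 and 2. The exceptions were Nr4a1 (5.78% in WT and 34.4% in mKO) and Egr2 (15.5% and 28.8%), which varied more in mKO. The WT figure rests on replicate 3: without it the median was 4.21%, against 22.9% without replicate 1 and 27.0% without replicate 2. WT replicate 3 was the highest WT library for Fos, Jun, Ier3, Nr4a1 and Btg2 and the lowest for Fosb, Junb and Egr2. In that library Atf3, a stress-induced factor, stood at 55.5 TPM against 21.7 and 21.8 TPM in WT replicates 1 and 2. The matricellular gene Ccn1 stood there at 92.3 TPM against 60.5 and 60.2 TPM. In mKO Atf3 stood at 15.2, 29.9 and 26.2 TPM and Ccn1 at 60.2, 91.8 and 57.0 TPM. Other early response genes, Egr3, Klf10 and Bhlhe40 among them, were lowest of all libraries in WT replicate 3. All of these were picked after their values were seen. Their part in the spread was not tested.

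**Figure D4:**
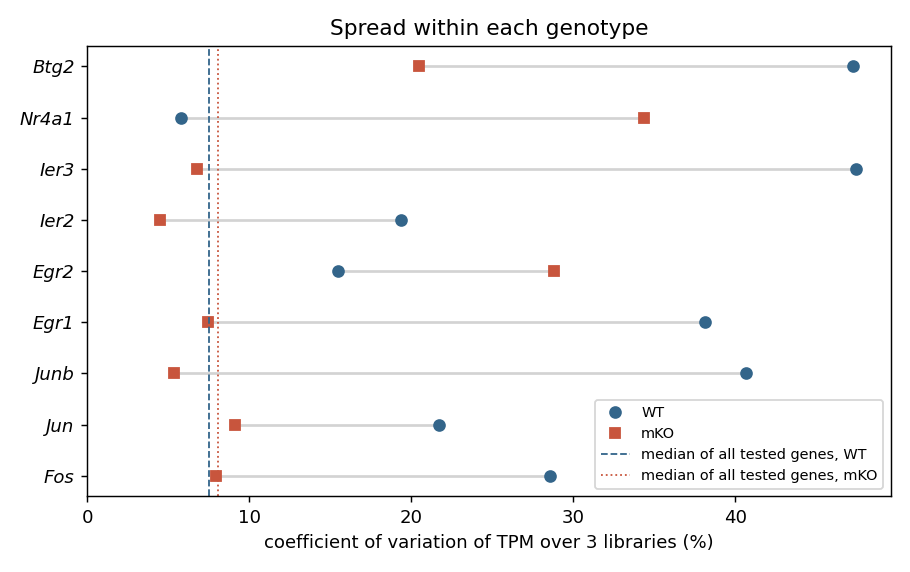
Coefficient of variation of TPM over 3 libraries for each of the 9 tested immediate early genes in WT (circles) and mKO (squares), with the medians of all tested genes as vertical lines (7.54% in WT and 8.06% in mKO). All but Nr4a1 and Egr2 vary more among the WT libraries.

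No other early response gene passed the test either. Of 40 tested from a list of 44 (other AP-1, EGR, NR4A and KLF factors and genes induced with them), 0 were called by limma. There were 4 higher and 3 lower at an unadjusted p under 0.05, 22 above and 18 below 0, and the median log2 fold change was 0.07. The largest were Nr4a2, a relative of Nr4a1, and the kinase gene Pim1. Nr4a2 stood at 3.87, 2.41 and 3.37 TPM in WT and at 5.87, 4.50 and 7.70 TPM in mKO, without overlap (log2 fold change 0.73, SE 0.19, adjusted p = 0.201). Pim1 stood at 5.29, 4.16 and 4.35 TPM in WT and at 8.90, 5.41 and 8.82 TPM in mKO (log2 fold change 0.61, SE 0.17, adjusted p = 0.239). Genes that limit the response also held 0 calls among 17 tested, with a median of 0.07. There were 4 higher and 0 lower at an unadjusted p under 0.05, against 462 higher and 849 lower of all 12301 tested genes. The list holds phosphatases of the MAP kinases, proteins that degrade unstable mRNAs and other inhibitors of signalling. Among them Socs3, an inhibitor of cytokine signalling, was at 0.38 on the log2 scale (adjusted p = 0.387), and the phosphatase gene Dusp14 at −0.33 (adjusted p = 0.605).

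Of the factors and kinases upstream of these genes 1 of 28 passed the test. Camk2a, a subunit of the calcium-dependent kinase CaMKII, fell from 32.8, 33.5 and 31.0 TPM in WT to 23.5, 22.5 and 22.6 TPM in mKO (log2 fold change −0.49, SE 0.06, adjusted p = 0.0188). The call held in 9 of 16 alternative settings. It was lost without WT replicates 1, 2 or 3 (adjusted p = 0.0704, 0.161 and 0.0591), without mKO replicates 1 or 2 (0.0776 and 0.0551), with no filter (0.0742) and with a replicate block (0.0615). The median of this list was −0.02, with 14 above and 14 below 0. At an unadjusted p under 0.05 there were 1 higher and 4 lower, Camk2a included. The groups did not overlap in 8 of the 28, with 1 higher and 7 lower, against 5.67% and 10.3% of all tested genes. The larger mitochondrial share in mKO enters these counts through the fixed TPM sum. Rescaled to the sum of all other genes, Mef2a, Map2k2, Rps6ka2 and Camk2b overlapped between the groups. Camk2a, Camk2g and Rps6ka1 stayed lower in every mKO library, and Elk1 higher. Under that scaling 24.9% of all genes were higher without overlap and 2.62% lower. Srf, serum response factor itself, stood at 66.2, 61.5 and 64.2 TPM in WT and at 63.6, 65.1 and 63.7 TPM in mKO.

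**Figure D5:**
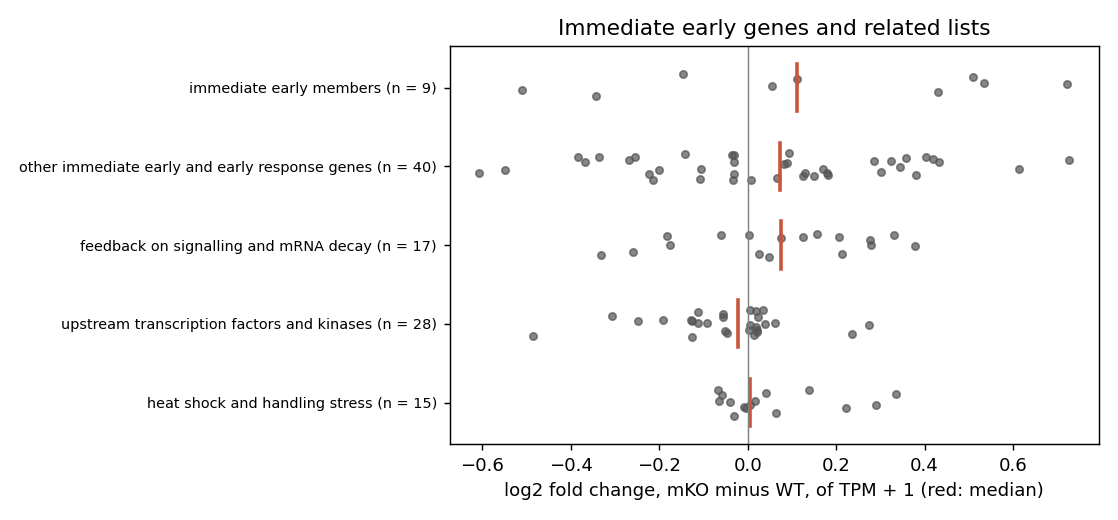
Log2 fold change (mKO minus WT) of TPM + 1 of each tested gene in the immediate early set and in 4 related lists, with list medians in red. Medians lie between −0.02 and 0.11, and among these genes Camk2a alone passed the test.

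Heat shock genes, which respond to handling, warming and injury, held 0 calls among 15 tested, with 3 higher and 0 lower at an unadjusted p under 0.05 and a median of 0.01. The inducible chaperone Hspa1a stood at 45.3, 34.5 and 66.1 TPM in WT and at 37.7, 51.5 and 48.8 TPM in mKO. WT replicate 3 was its highest library, whereas most genes of this list were highest in another library. Hspa1a was picked after its values were seen. It has a near-identical copy, Hspa1b, to which reads could be assigned. The largest were Hspa4l (log2 fold change 0.34, adjusted p = 0.32) and Hsp90aa1 (0.29, adjusted p = 0.207). Of 17 tested genes of the contraction and exercise response 0 passed, with 1 higher at an unadjusted p under 0.05 and a median of −0.09. Cish, an inhibitor of cytokine signalling, stood at 1.20, 1.33 and 1.88 TPM in WT and at 6.06, 2.74 and 2.87 TPM in mKO (log2 fold change 0.93, adjusted p = 0.201). Ankrd1, a stretch-induced gene, was led by mKO replicate 2 at 35.2 TPM, with 9.23 to 13.9 TPM in the other libraries (log2 fold change 0.70, adjusted p = 0.546).

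Immediate early genes are expressed in many cell types, and no marker list of another cell type held a called gene. Summed TPM overlapped between the groups for macrophage markers (149 to 171 in WT, 129 to 227 in mKO, 10 of 10 tested), fibroblast markers (1173 to 1344 and 1125 to 1552, 8 of 8), smooth muscle and pericyte markers (485 to 500 and 436 to 505, 8 of 8), satellite cell markers (28.2 to 31.9 and 26.8 to 33.2, 5 of 6), Schwann cell markers (37.9 to 55.2 and 33.3 to 47.9, 5 of 6), adipocyte markers (110 to 247 and 113 to 171, 6 of 6) and red blood cell markers (896 to 1191 and 560 to 1249, 5 of 5). Endothelial markers stood at 261 to 273 in WT and 252 to 262 in mKO (8 of 8), also with overlap. Of 6 neutrophil markers 0 reached the level for testing, with sums of 1.03 to 2.07 and 0.755 to 2.69 TPM and Ly6g listed at 0 in every library. The 11 myofibre markers summed to 72638 to 78330 TPM in WT and 63914 to 66642 TPM in mKO, without overlap. The fixed TPM sum enters here, since mitochondrially encoded genes took 42.1% to 45.1% in WT and 46.8% to 48.9% in mKO. With those genes left out the gap was smaller, still without overlap. At an unadjusted p under 0.05, 3 of 8 fibroblast markers were higher in mKO, with a list median of 0.18, and 4 of 11 myofibre markers were lower, with a median of −0.12. There were 1 macrophage marker higher and 1 endothelial and 1 smooth muscle and pericyte marker lower, and none of the other types. List medians were 0.14 for macrophage markers (9 of 10 above 0), −0.16 for adipocyte markers (6 of 6 below) and −0.28 for red blood cell markers (5 of 5 below). Those of endothelial, smooth muscle and pericyte, satellite cell and Schwann cell markers lay between −0.08 and 0.02. The part of these transcripts in the members' values was not tested.

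Across the 6 libraries the genes most like the members' mean pattern were Mfsd12, Rnaseh2c, Vegfc, Fggy and Lsm10, out of 10088 genes compared. Their similarity to the mean centred log2(TPM + 1) of the 9 tested members, as a correlation coefficient over 6 libraries, was 0.987, 0.966, 0.960, 0.956 and 0.954. That mean was −0.04, −0.26 and 0.07 in WT and 0.05, 0.09 and 0.08 in mKO, with WT replicate 2 as its lowest point. It averages members that differ, since the coefficient between pairs of them ran from 0.99 (Egr1 and Ier2) to −0.89 (Jun and Junb). The libraries share genotype and the fixed TPM sum, and with so many genes compared over 6 libraries such values are a description only. None of these 5 genes was called between the groups.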

How the data were processed

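Each library came as a file of TPM that the authors deposited, per the file headers: reads per gene length, scaled to a fixed sum. Per the submitters' processing notes the build was GRCm39. How reads were aligned and counted, and whether by strand, is not stated in any source used here. Libraries were poly(A)-selected and directional, per the labels' protocols. TPM has a fixed sum, so a rise of abundant genes lowers all others.

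Genotypes were compared by limma-trend on log2(TPM + 1) (R 4.3.3 with limma 3.58.1), over 12301 genes with 1 TPM or more in at least 3 libraries, and p-values were Benjamini-Hochberg adjusted and called under 0.05. Changes are given as mKO minus WT on that scale, which understates changes of low genes. Confidence intervals are limma's and not adjusted. Multiplying TPM by exon length in GENCODE M21 gave whole reads, within 0.05, for 93.1% of 22729 genes, which include all members but Ier2. Of these values 58.6% were even, so read pairs may in part count as 2. Libraries of 1 group were not copies of each other (chi-square of 19.6 to 37.6 per degree of freedom). The test was tried on simulated reads.

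Members and gene lists were chosen with earlier results of these data known. Named were all members, called genes of each list (at most 4), or else the 2 of largest change, and the 5 genes of most similar pattern. Jund, Srf, Hspa1a, Atf3, Ccn1, Egr3, Klf10, Bhlhe40, Mef2a, Map2k2, Rps6ka1, Rps6ka2, Camk2b, Camk2g and Elk1 were chosen with their values in view. Alternatives were other pseudocounts, filters, scalings, a replicate block, robust limma, limma-voom and each library left out.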

Additional observations from a re-analysis of the deposited data

How the results depend on the processing

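No immediate early gene passed the test under any of the 16 alternatives run. The lowest adjusted p of any member over them was 0.0532, for Egr1 without WT replicate 1. The direction of Fos, Jun, Junb, Egr1, Egr2, Ier2 and Nr4a1 was the same in every alternative that tested them. Over these alternatives the log2 fold change lay between 0.38 and 0.73 for Fos, −0.62 and −0.34 for Jun, 0.53 and 0.96 for Egr1 and 0.35 and 0.57 for Ier2. Ier3 changed sign without WT replicate 1 (−0.12) and without WT replicate 2 (−0.09), and Btg2 without WT replicate 3 (0.21) and without mKO replicate 1 (0.01), with Btg2 lying between −0.33 and 0.21 over the libraries left out. Over all genes, 64 were called, with 6 under no filter, 41 with mitochondrially encoded genes left out, and 4 to 94 when each library was left out. Leaving out mitochondrially encoded genes moved the median over all genes from −0.01 to 0.09 (log2). Under it Junb too was higher in mKO without overlap, and 27.5% of all genes did not overlap (24.9% higher and 2.62% lower). The causes were not tested. With replicate number as a block 21 genes were called. Same-numbered libraries deviated together by correlations of 0.0950, 0.0474 and 0.131 across genes, and each correlated best with its own number, a hint from the data and not from the design, so the numbers were not taken to pair the libraries. Depth limits Fosb and Egr2 most.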

Other observations

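Genes that report on stress hormones, the time of day and oxygen, each known to affect immediate early genes, held no called gene. Of 15 tested glucocorticoid-responsive genes, 0 passed by limma, 0 were higher and 2 lower at an unadjusted p under 0.05, and 11 lay below 0, with a median log2 fold change of −0.20 against −0.01 for all tested genes. Sgk1, 1 of these 2, is also among the lower genes of the early response list. The gene lists share other genes too, such as Per1, Cebpd and Ddit4, so their counts are not separate. Ddit4, an inhibitor of mTORC1 that glucocorticoids and hypoxia induce, stood at 48.5, 70.2 and 107 TPM in WT and at 30.8, 87.2 and 34.0 TPM in mKO. Its groups overlapped (log2 fold change −0.65, adjusted p = 0.643), as did those of Foxo1 (−0.35, adjusted p = 0.596).

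Of 16 tested genes of the circadian clock and its output, 0 passed by limma, with 1 higher and 3 lower at an unadjusted p under 0.05 and a median of −0.01. Per2, a repressor within the clock, stood at 1.61, 2.64 and 2.79 TPM in WT and at 0.950, 1.88 and 1.63 TPM in mKO (log2 fold change −0.43, adjusted p = 0.482), and the activator Npas2 was at 0.32 (adjusted p = 0.372). Of 11 tested hypoxia-responsive genes 0 passed, with 1 higher at an unadjusted p under 0.05 and a median of −0.01. Bnip3, a mitophagy receptor induced by hypoxia, was at 0.17 on the log2 scale (adjusted p = 0.351).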
